A study of Mus musculus with 3 samples.

Results

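The MAP kinase phosphatases are dual-specificity enzymes that switch off MAP kinases, and the 9 genes Dusp1, Dusp2, Dusp4, Dusp5, Dusp6, Dusp7, Dusp8, Dusp10 and Dusp16 were examined in a list of predicted N6-methyladenosine (m6A) sites of RAW264.7 cells. A site belonged to a gene when it lay inside the gene's span on the same strand (GENCODE M21, GRCm38), and it was placed on the transcript with the longest coding sequence (CDS). The list held 19301 sites, all at an A, of which 17 lay in 4 of the 9 genes. Dusp4 had 8 sites, Dusp7 had 5, Dusp6 had 3 and Dusp16 had 1. Dusp1, Dusp2, Dusp5, Dusp8 and Dusp10 had no site.

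RAW264.7 is an established mouse macrophage line, and the cells were untreated. The method, miCLIP2, crosslinks a rabbit anti-m6A antibody to fragmented poly(A)+ RNA (here 1 µg per library) and locates the modified base from truncated cDNAs. Reads with C-to-T transitions were left out of peak calling, and their number was used later in scoring. The 3 biological replicates of this 1 condition were combined by the authors into 1 list, in which each site carries a score from m6Aboost, a machine learning model of the authors. The series text calls the line human, while the organism label is mouse. The score is the confidence of the model and not a level of methylation, and no counts or coverage come with it, so the depth behind a site cannot be given and no value has a replicate error. Values are therefore described beside those of the whole list, without tests, and the intervals given are 95% Wilson intervals that cover counting error only.

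MAP kinases are activated by phosphorylation of a threonine and a tyrosine in their activation loop, and the phosphatases of this family remove both phosphates. Each enzyme has a catalytic domain and an N-terminal part that binds the kinase, and the family is commonly divided by location and by preferred kinase. Many of its genes are induced by the signal that their product ends, and in macrophages exposed to bacterial products this feedback limits the production of inflammatory cytokines. m6A is deposited on pre-mRNA mainly within DRACH motifs (D is A, G or T, R is A or G, H is A, C or T) and is bound by reader proteins that affect the fate of the RNA.

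The label of the cells was checked with marker genes. Of 10 macrophage markers, 6 had a site, with 44 sites in all. Those with most sites were Cd14, a co-receptor for lipopolysaccharide, with 13, Csf1r, the receptor for the macrophage growth factor, with 11, and Spi1, a myeloid transcription factor, with 6. Adgre1, Itgam, Cd68 and Mrc1 had none. None of the 4 T cell, 3 B cell, 3 epithelial, 3 fibroblast and 3 embryonic stem cell markers had a site. A site shows that the RNA was present, whereas a gene without a site may be unmethylated, weakly covered or not transcribed. This holds for the 5 phosphatase genes without a site as well.

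Across the annotation, 22.4% of protein-coding genes (4923 of 21951) had at least 1 site, beside 4 of the 9 phosphatase genes. No site of the 9 genes lay in a second gene on the strand, none lay in an intron of the chosen transcript, and the list had no further site within 5000 nt outside any of the 9 spans or on the opposite strand inside them. The stretches by which the RefSeq genes of the same build reach past the GENCODE spans, up to 14438 nt upstream of Dusp16, held no site either.

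**Figure D1:**
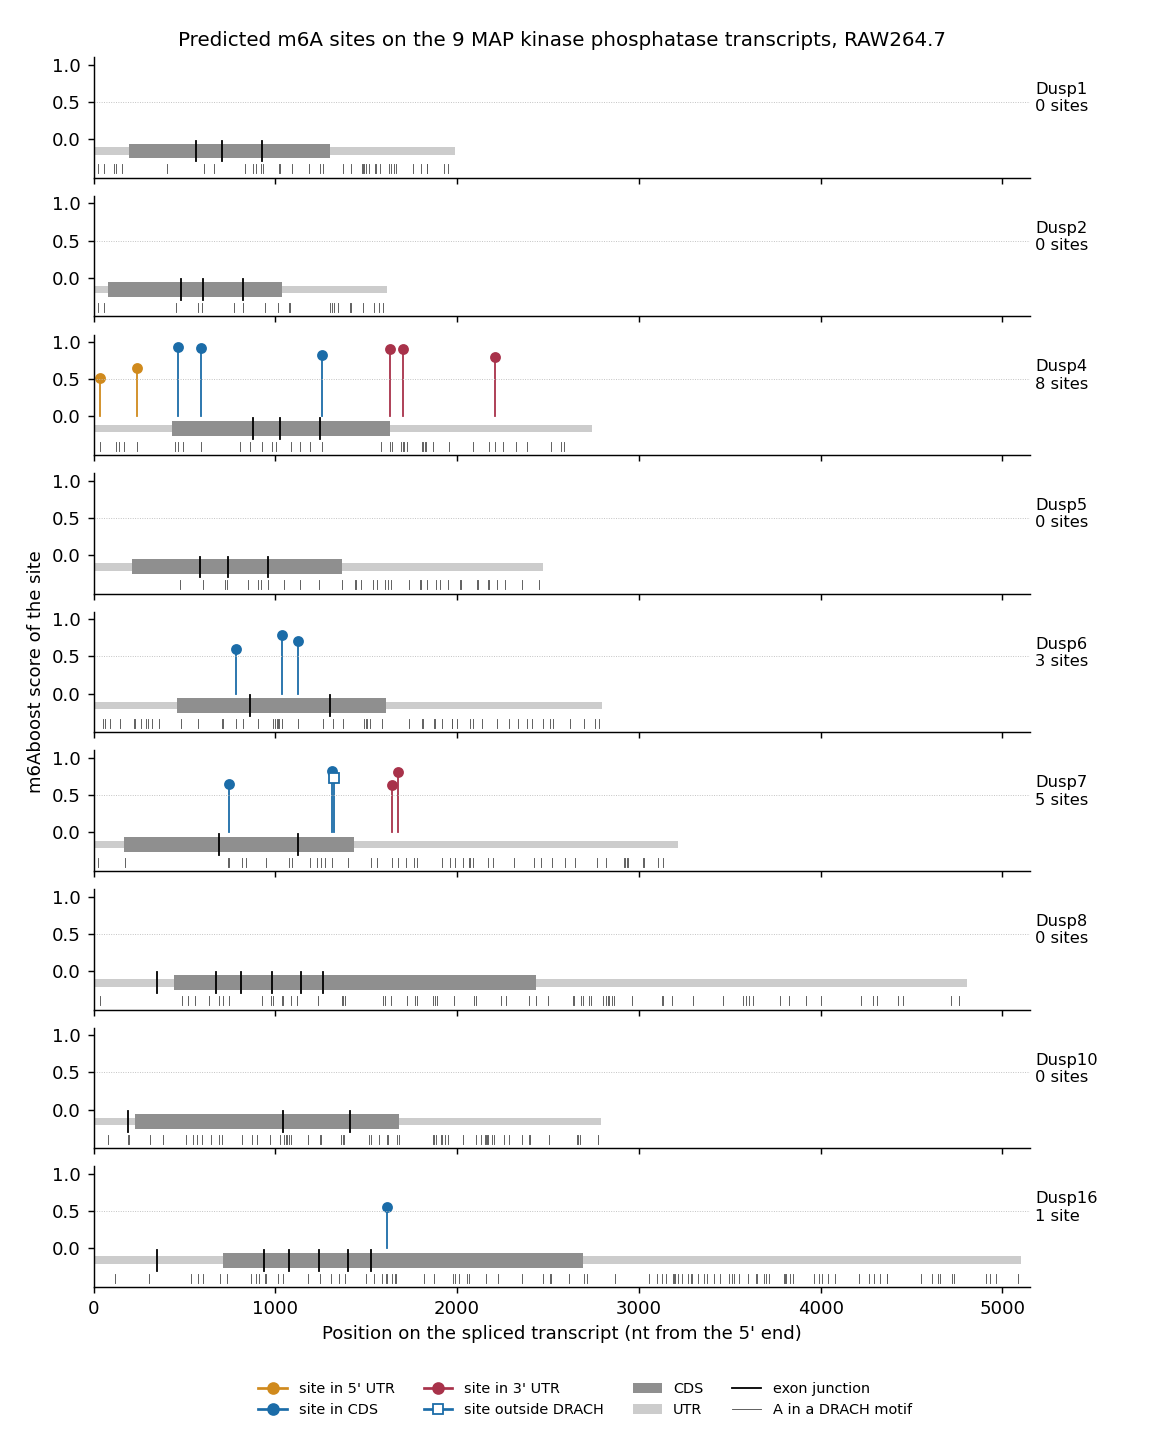
Each panel is the spliced transcript of 1 phosphatase gene drawn to scale in nt from its 5′ end, with the CDS as the thick bar, exon junctions as black lines and every A in a DRACH motif as a tick below; stems mark the predicted m6A sites and their height is the m6Aboost score. Dusp4 carries 8 sites from the 5′ UTR to the 3′ UTR and the 3 sites of Dusp6 lie in the CDS. The 5 transcripts without a site have 22 to 69 DRACH motifs each. Over all coding transcripts with a site, 4.72% of DRACH A were listed.

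The nuclear and inducible enzymes are encoded by Dusp1, Dusp2, Dusp4 and Dusp5, and Dusp4 alone of these had sites. Dusp4 encodes a nuclear phosphatase of ERK and JNK. The gene spans chr8:34807297-34819894 on the plus strand, and its annotated transcript, ENSMUST00000033930.4, has 4 exons and 2740 nt, with a 5′ UTR of 432 nt, a CDS of 1197 nt and a 3′ UTR of 1111 nt. The 8 sites fell in the first and the last exon, of 877 and 1497 nt. In the 5′ UTR the scores were low, with 0.513 at chr8:34807330 (AAACT) and 0.649 at chr8:34807533 (GGACT). In the CDS they were 0.934 at chr8:34807760, 0.915 at chr8:34807886 and 0.827 at chr8:34818410, and the first of these was above 96.6% of all scores in the list. In the 3′ UTR they were 0.904 at chr8:34818785, 0.903 at chr8:34818857 and 0.794 at chr8:34819362 (TGACT). Dusp4 thus held all 4 sites of the family with a score of at least 0.9. Of the 4974 genes with a site, 21 (0.422%) had at least 4 sites at that score.

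The position of the Dusp4 sites relative to the transcript's landmarks varied. The site at chr8:34818785 was the base 4 nt past the first base of the TAG stop codon, which makes it base 2 of the 3′ UTR, and its pentamer began on the last base of the stop codon. The site at chr8:34818857 lay 76 nt past the same point, and the TGACT site lay 581 nt past it. The site at chr8:34818410 was 12 nt into the last exon and 27 nt from the codon of the catalytic cysteine, which was found by its signature of histidine, cysteine and arginine. It was the closest to an exon junction of all 17 sites. Both 5′ UTR sites lay upstream of the RefSeq start of the gene (34807610), by 280 and 77 nt, so their region depends on the longer GENCODE first exon.

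A further feature of Dusp4 was that the list held every GGACT of its transcript, 6 of 6. Over all coding transcripts with a site, 17.4% of GGACT were listed (3578 of 20548). Of the 1278 such transcripts with at least 6 GGACT, 3 (0.235%), Dusp4 among them, had all of them listed, and the median share was 14.3%. Dusp4 has the minimum of 6 for this set, and a complete listing is harder to reach with more motifs. This comparison was chosen after the values were seen. The 6 windows are shown as the complete set of this motif in the transcript; they are the plus strand of GRCm38, 21 nt with the site at the centre, and capitals mark the pentamer around the site.
Dusp4 chr8:34807533, 5′ UTR: gaaggctgGGACTgctatgta
Dusp4 chr8:34807760, CDS: cgggagatGGACTgcagcgtg
Dusp4 chr8:34807886, CDS: ctgctgctGGACTgcaggccg
Dusp4 chr8:34818410, CDS: gcagtaaaGGACTgtcgaggg
Dusp4 chr8:34818785, 3′ UTR: agctgttaGGACTcgtctctg
Dusp4 chr8:34818857, 3′ UTR: gcaaatagGGACTgaccagtg

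By all DRACH motifs, 8 of the 40 A of the Dusp4 transcript were listed, or 20% (10.5 to 34.8%). The median over the 4818 coding transcripts with a site was 4.35%, with quartiles of 2.24 and 8%, and 2.7% of these transcripts had a share as high as that of Dusp4. Of the 14 DRACH A in its CDS 3 were listed, and of the 21 in its 3′ UTR 3 were listed. Per length, Dusp4 had 2.92 sites per kb of spliced transcript, against a median of 0.917 and quartiles of 0.49 and 1.7. As many sites or more were found in 622 of the 4974 genes with a site (12.5%).

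Dusp1 encodes the immediate early phosphatase of p38 and JNK that restrains cytokine production in macrophages. It had no site in chr17:26505590-26562128 on the minus strand. Its transcript of 1990 nt held 39 DRACH A, of which 4 were GGACT, and none of them was listed. At the protein level Dusp1 was the closest relative of Dusp4 among the members, with 64% identity over 367 aligned residues computed from the coding sequences. The unlisted GGACT of Dusp1, given 5′ to 3′ on the minus strand of GRCm38 with the motif in capitals for comparison with those of Dusp4, were the following.
Dusp1 chr17:26508464, 5′ UTR: gcagtgaaGGACTggcgggag
Dusp1 chr17:26508410, 5′ UTR: gcacttggGGACTtagggcca
Dusp1 chr17:26506558, CDS: cctcatgaGGACTaaccgggt
Dusp1 chr17:26506006, 3′ UTR: aagagaaaGGACTctgtttga

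Dusp2 encodes a nuclear phosphatase found mainly in activated immune cells. It had no site in chr2:127336159-127338376 (plus strand), and its transcript was the shortest of the 9 with 1617 nt and 22 DRACH A, none of which was a GGACT. Dusp5, a nuclear phosphatase specific for ERK, had no site in chr19:53529109-53542431 (plus strand). Its single annotated transcript of 2473 nt held 37 DRACH A, and both of its GGACT lay in the 3′ UTR.

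The family shares a stretch in its N-terminal part where Dusp4 had its site of score 0.915. The site was the A of an aspartate codon, GAC, at codon 53. When the 9 coding sequences were aligned by their translation, all 9 had an aspartate codon at this place, but a DRACH pentamer was found in Dusp4 and Dusp6 alone. Dusp4 was listed there and Dusp6, at chr10:99263804, was not. The windows of the 9 genes are printed with the aligned pentamer in capitals, on the strand of each gene.
Dusp1 chr17:26508241: ctgttgttGGATTgtcgctcc
Dusp2 chr2:127336341: ctgctgctCGACTgccgcccg
Dusp4 chr8:34807886: ctgctgctGGACTgcaggccg
Dusp5 chr19:53529397: gtggtgctCGACTgccggccc
Dusp6 chr10:99263804: ctgctgatGGACTgccgacca
Dusp7 chr9:106369033: ctgctgctAGATTgccggccg
Dusp8 chr7:142090083: ttggtcatCGACAgccggtcc
Dusp10 chr1:184037368: gtcatcatCGATTgcaggcct
Dusp16 chr6:134760985: ctgctaatTGATAgccgacca

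The cytoplasmic phosphatases specific for ERK are encoded by Dusp6 and Dusp7, and both genes had sites. Dusp6 is induced by ERK signalling and ends it by feedback. The gene spans chr10:99263231-99267489 on the plus strand, and ENSMUST00000020118.4 has 3 exons and 2796 nt. Its 3 sites lay in the CDS, at chr10:99264014 (GAACA, score 0.603), chr10:99264721 (GGACT, 0.788) and chr10:99264805 (GGACT, 0.706). The first was in exon 1, 77 nt from the junction, and the others were in exon 2 of 438 nt, 84 nt apart. They lay 821, 566 and 482 nt upstream of the stop codon. None of the 24 DRACH A in the 3′ UTR and none of the 11 in the 5′ UTR was listed, whereas 3 of the 22 in the CDS were. Of the 8 GGACT of Dusp6 2 were listed, and the 6 unlisted ones included 2 in exon 3 within 100 nt of the stop codon. Its share of listed DRACH A was 5.26% (1.81 to 14.4%), near the median of transcripts with a site.

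Dusp7 encodes a close relative of the Dusp6 product, with 71% identity over 379 aligned residues. The gene spans chr9:106368632-106375724 on the plus strand, and ENSMUST00000172306.2 has 3 exons and 3213 nt, 1778 of them in the 3′ UTR. A site of score 0.644 (GGACA) lay in exon 2 at chr9:106370755, 54 nt from a junction. The other 4 sites were in the last exon, of 2086 nt, and formed a pair on each side of the stop codon. The pair in the CDS was chr9:106373825 (GGACT, score 0.825) and chr9:106373836 (score 0.729), 11 nt apart and 119 and 108 nt upstream of the stop codon. The pair in the 3′ UTR was chr9:106374152 (AGACA, 0.639) and chr9:106374188 (AGACT, 0.807), 36 nt apart and 208 and 244 nt past the first base of the stop codon. Of its 47 DRACH A 4 were listed, or 8.51% (3.36 to 19.9%), and 23% of transcripts with a site had a share as high. Of its 4 GGACT 1 was listed.

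The site at chr9:106373836 was the single site of the family outside DRACH. Its pentamer, GGACG, keeps the AC core and was the most frequent of those outside DRACH in the list, with 382 of 1555 such sites (24.6%). Over all coding transcripts with a site 3.79% of GGACG were listed (369 of 9749), and in the 9 phosphatase transcripts 1 of 20 was. As the site lies 11 nt from a listed GGACT, their windows overlap.

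Each of the 3 further members with sites is represented here by the window of its highest score, and Dusp7 also by the site outside DRACH, on the strand of the gene with the pentamer in capitals.
Dusp6 chr10:99264721, score 0.788: agtgcaacGGACTctgatggc
Dusp7 chr9:106373825, score 0.825: cagctgctGGACTttgagcgg
Dusp7 chr9:106373836, score 0.729: ctttgagcGGACGctggggct
Dusp16 chr6:134718963, score 0.556: taataaccAGACTggaatgtc

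The enzymes that act mainly on JNK and p38 are encoded by Dusp8, Dusp10 and Dusp16. Dusp16 spans chr6:134715468-134792625 on the minus strand, and ENSMUST00000100857.9 has 7 exons and 5104 nt, the longest of the 9 transcripts. Its single site, chr6:134718963 (AGACT), had a score of 0.556, above 11.1% of all scores. It was in the CDS part of the last exon, which is 3579 nt long, 88 nt from the junction and 1077 nt upstream of the stop codon. It was 1 of 97 DRACH A, or 1.03% (0.182 to 5.61%), and none of the 5 GGACT and none of the 56 DRACH A of the 3′ UTR was listed. Dusp8, with a transcript of 4804 nt and 69 DRACH A in chr7:142079490-142095843 (minus strand), had no site. Dusp10, with 2792 nt and 61 DRACH A in chr1:184013302-184075636 (plus strand), had none either. Dusp8 had 4 and Dusp10 had 3 unlisted GGACT. Dusp9, a further cytoplasmic ERK phosphatase that is not among the 9 genes, also had no site.

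The places of the CDS sites were also looked up in the other members. For the 10 CDS sites, the aligned codon could be found 76 times in another member, a DRACH pentamer stood at the same place in 5 of these (6.58%, 2.84 to 14.5%), and none of the 5 was listed. Over all 181 DRACH A in the aligned codons of the 9 genes, listed or not, the share was 12% (128 of 1068), inside that interval. In Dusp6 and Dusp7, 6 DRACH A of the CDS (of 22 and 14) fell on the same place of aligned codons. Of these 6, 1 was listed in Dusp6 and a different 1 in Dusp7. Dusp8 and Dusp16 shared 6 such places and Dusp1 and Dusp4 shared 1, none of them listed in either gene. Of the DRACH places shared by Dusp6 and Dusp7, those listed are shown with the aligned windows that hold a DRACH pentamer. The Dusp7 site outside DRACH, aligned to an unlisted GGACC of Dusp6 at chr10:99266189, is not among them. The first pair belongs to the Dusp6 site of score 0.706, and the 3 lines after it to the Dusp7 site of score 0.825; the capitals are the aligned pentamers.
Dusp6 chr10:99264805, listed: tgtgccaaGGACTcgaccaac
Dusp7 chr9:106370959, not listed: tgtgccaaGGACTctaccaac
Dusp7 chr9:106373825, listed: cagctgctGGACTttgagcgg
Dusp6 chr10:99266178, not listed: cagctgctTGACTtcgaaagg
Dusp16 chr6:134718989, not listed: caactcatGGACTatgagaag

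The CDS sites were also placed in the reading frame. Of the 10, 8 were at position 2 of their codon (80%, 49 to 94.3%) and 2 at position 1, and 7 were the A of a GAC codon for aspartate (70%, 39.7 to 89.2%). Over the CDS sites of all genes, 49% (4817 of 9823) were at position 2 and 38.6% were in GAC. Among all DRACH A in the CDS of the 9 phosphatases, listed or not, 63.9% (117 of 183) were at position 2 and 47% were in GAC. The latter values lay inside the intervals of the 10 sites, whereas the 38.6% of all CDS sites in GAC lay just below.

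By motif, 16 of the 17 sites were at DRACH (94.1%, 73 to 99%), close to the 91.9% of the whole list. GGACT made up 9 of the 17 (52.9%, 31 to 73.8%) against 19.4% of the list, and 6 of the 9 were those of Dusp4. AGACT was found at 2 sites and 6 other pentamers at 1 site each. The surrounding sequence and the transcript region are among the inputs of the model. The share of GGACT, the shares by region and the scores by motif and region therefore depend in part on it.

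The median score of the 17 sites was 0.788, with quartiles of 0.644 and 0.827, against 0.734 (0.627 and 0.832) for all sites. Without Dusp4 the median of the other 9 sites was 0.706, below that of the list, so the direction rests on Dusp4. Within GGACT the median was 0.827 for the 9 phosphatase sites and 0.803 for all 3739, and it was 0.788 for the 3 GGACT sites outside Dusp4. Scores of at least 0.9 made up 4 of 17 (23.5%, 9.56 to 47.3%) against 8.77% of the list. The medians by gene were 0.865 for Dusp4, 0.729 for Dusp7 and 0.706 for Dusp6, and the ranges of these 3 genes overlapped. In the whole list the median was 0.620 in 5′ UTRs, 0.7 in the CDS and 0.787 in 3′ UTRs, beside 0.581 (2 sites), 0.758 (10 sites) and 0.807 (5 sites) for the phosphatases. Within genes, the order of CDS and 3′ UTR turned by small margins on few sites. Dusp4 had a median of 0.915 for its 3 CDS sites and 0.903 for the 3 of its 3′ UTR. Its 2 sites in the 5′ UTR were lowest, with 0.581. Dusp7 had 0.729 for 3 CDS sites and 0.723 for 2 in the 3′ UTR.

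**Figure D2:**
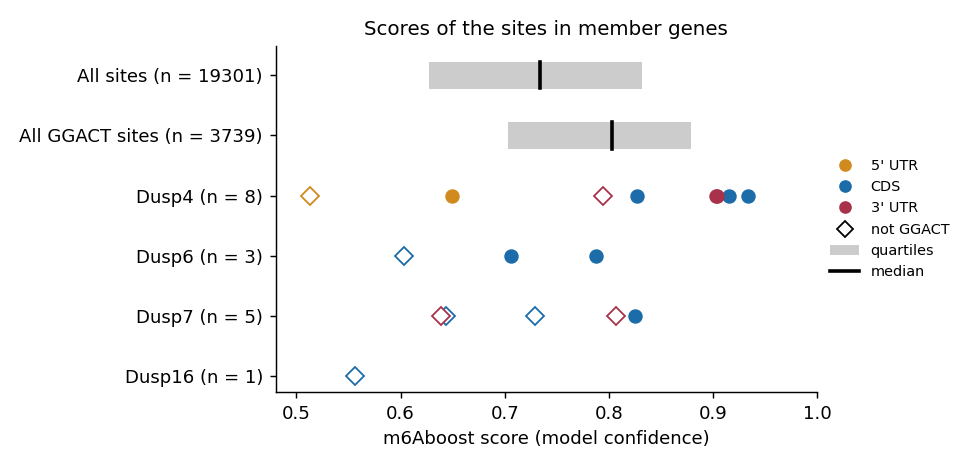
Points are the m6Aboost scores of the 17 sites by gene, coloured by transcript region, with open diamonds for pentamers other than GGACT; grey bars and black lines give the quartiles and the median of all 19301 sites and of all 3739 GGACT sites. Dusp4 has 4 sites between 0.903 and 0.934, above the third quartile of all GGACT sites (0.879), and the Dusp16 site, at 0.556, is below the first quartile of the list (0.627).

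By region, 10 of the 17 sites were in the CDS (58.8%, 36 to 78.4%), 5 in the 3′ UTR (29.4%, 13.3 to 53.1%) and 2 in the 5′ UTR (11.8%, 3.29 to 34.3%). The shares over all sites placed in a gene were 51, 42.9 and 2.19%. Within 200 nt of the stop codon lay 4 of the 17 sites (23.5%, 9.56 to 47.3%), against 32.3% of all sites, and these 4 belonged to Dusp4 and Dusp7. The last exon held 9 of the 17 (52.9%), against 68.6% of all. The values of the whole list for the CDS, the 3′ UTR, the stop codon and the last exon lay inside the intervals of the phosphatase shares, so a difference in these shares of sites was not detectable with 17 sites. Counted per motif, the list's value for the last exon lay above the interval over the 9 transcripts and inside that over the 4 with a site. The list's transcripts all have a site, which 5 of the 9 do not. The intervals also treat the motifs of 1 transcript as independent. In the 9 transcripts 8 of 327 DRACH A of the last exon were listed (2.45%, 1.24 to 4.75%) and 8 of 142 in other exons (5.63%, 2.88 to 10.7%), while the shares over all coding transcripts with a site were in the opposite order, 6.44 and 2.99%. Over the 4 transcripts with a site they were 4.73% (2.42 to 9.06%) and 11.1% (5.74 to 20.4%). There the 6.44% lay inside the interval of the last exon, and the 2.99% lay below that of the other exons. Without Dusp4 they were 2.74% (1.07 to 6.83%) and 7.27% (2.86 to 17.3%) in this set, and both list values lay inside. Over the 9 without Dusp4 they were 1.32% (0.513 to 3.33%) and 3.2% (1.25 to 7.94%), with the 6.44% still above. For the shares of sites by region, the 2.19% of the list in the 5′ UTR lay below the interval, which rests on both sites of Dusp4.

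Of the 17 sites, 13 (76.5%, 52.7 to 90.4%) were at least 100 nt from an exon junction, against 87.3% of all sites. The 4 nearer ones were distributed over the 4 genes, with 12 nt in Dusp4, 54 nt in Dusp7, 77 nt in Dusp6 and 88 nt in Dusp16. In the 9 transcripts 4 of 83 DRACH A closer than 100 nt to a junction were listed (4.82%, 1.89 to 11.7%) and 12 of 386 farther away (3.11%, 1.79 to 5.35%). In the 4 transcripts with a site the shares were 10.5% (4 of 38, 4.17 to 24.1%) and 5.91% (12 of 203, 3.41 to 10%). Over all coding transcripts with a site, they were 1.43 and 6.92%. The share near junctions was the lower one in the whole list and not in the phosphatases, where 4 listed positions set it and its interval overlaps that of the positions farther away. The 1.43% of the list lay below both phosphatase intervals near junctions, and its 6.92% lay above the interval farther away over the 9 and inside that over the 4. Leaving out Dusp4 changed 1 placement of each. Near junctions the shares were then 4% (1.37 to 11.1%, which holds the 1.43%) and 10% (3.46 to 25.6%) over those with a site. Farther away they were 1.41% (0.605 to 3.26%) and 2.92% (1.26 to 6.66%), and the 6.92% lay above both.

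Counting all motifs, 16 of the 469 DRACH A of the 9 transcripts were listed (3.41%, 2.11 to 5.47%), and the share was 4.72% over all coding transcripts with a site. The latter have a site by choice, and in the 4 phosphatase transcripts with a site the share was 6.64% (16 of 241, 4.13 to 10.5%), above that value where the share over the 9 is below it. Without Dusp4 it was 3.98% (8 of 201, 2.03 to 7.66%) over the other 3 with a site, below the list again; this value was added after the data were seen. The 5 transcripts without a site held 228 DRACH A. In the CDS 9 of 183 were listed over the 9 transcripts (4.92%, 2.61 to 9.08%) and 9 of 85 over the 4 with a site (10.6%, 5.67 to 18.9%), beside 4.65% for all coding transcripts with a site. Without Dusp4 these shares were 3.55 and 8.45%. In the 3′ UTR 5 of 251 were listed over the 9 (1.99%, 0.854 to 4.58%) and 5 of 133 over the 4 (3.76%, 1.62 to 8.5%), beside 5.06%, which lies above the interval of the 9 and inside that of the 4. Without Dusp4 these shares were 0.87% (0.239 to 3.11%) and 1.79% (0.491 to 6.28%), with the 5.06% again above the former interval and inside the latter. For GGACT the share was 9 of 36 over the 9, or 25% (13.8 to 41.1%), and 9 of 23 over the 4, or 39.1% (22.2 to 59.2%), beside 17.4%. Without Dusp4 it was 3 of 30 (10%, 3.46 to 25.6%) and 3 of 17 (17.6%, 6.19 to 41%), so the higher share rests on Dusp4. Outside Dusp4 it was 2 of 8 in Dusp6, 1 of 4 in Dusp7 and none in the other genes.

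The distance between sites was compared as well. Another site within 100 nt on the spliced transcript was found for 8 of the 17 (47.1%, 26.2 to 69%), against 60% of all exonic sites, which lies inside the interval. The order turned without Dusp4 (66.7 against 60%) and at scores of at least 0.7 (54.5 against 47.9%) and 0.9 (50 against 14.7%, with 4 phosphatase sites). The 8 sites formed 1 pair in Dusp4, 72 nt apart around the start of its 3′ UTR, 1 pair in Dusp6 and 2 pairs in Dusp7.

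The 3′ UTRs were also searched for ATTTA on the sense strand, the core of AU-rich elements through which inducible mRNAs of this kind are destabilised. Dusp1 and Dusp2 had 4 each, or 5.8 and 6.88 per kb, and these genes had no site. Dusp8 had 5 (2.11 per kb) and Dusp10 had 3 (2.7 per kb), again without a site. Among the genes with sites, Dusp4 had 2 (1.8 per kb), Dusp6 had 1 (0.841 per kb), Dusp7 had 0 and Dusp16 had 3 (1.24 per kb). Dusp5 had 1 (0.902 per kb). Over the 20710 coding genes with a 3′ UTR, of any length, 61.6% had at least 1 match and the density was 1.93 per kb. A match is a description of the sequence and not a functional element.

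The pathway around the phosphatases was described with lists of genes, by the same rule, and their counts stand beside the 22.4% of protein-coding genes with a site. Of the 13 MAP kinases, among them the substrates of the family, 5 had sites (38.5%), most in Mapk14, a p38 kinase, and Mapk6, each with 8, and Mapk7 with 3. Of the 7 MAP kinase kinases 5 had sites (71.4%), led by Map2k3, an activator of p38, with 8, Map2k7, an activator of JNK, with 4, and Map2k2, an activator of ERK, with 2. Of 13 targets and feedback regulators 8 had sites (61.5%), most in Zfp36l2, which encodes a protein binding AU-rich elements, with 11, Rps6ka1, a kinase activated by ERK, with 9, and Spred1, an inhibitor of ERK signalling, with 8. Of 16 atypical dual-specificity phosphatases, most of which lack the kinase-binding part, 2 had sites (12.5%, below the share of all genes), Dusp3 with 12 and Dusp11 with 2. Dusp4 thus had as many sites as Mapk14, Mapk6, Map2k3 and Spred1, and of these 4 genes Map2k3 had most sites with a score of at least 0.9, namely 2.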

How the data were processed

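Poly(A)+ RNA of untreated RAW264.7 cells was profiled by miCLIP2 in 3 replicates of 1 condition. The authors mapped reads to GRCm38, removed duplicates, called peaks per replicate with PureCLIP, and scored reproducible peaks at A with m6Aboost; the submitters' processing notes name STAR 2.7.3a, SAMtools 1.9, UMI-tools 1.0.0 and bedtools 2.27.1. The deposited list pools the replicates, and its unit is the model's score, from 0.500 to 1.000. Neither counts nor coverage are part of it, so the precision of a site cannot be given; library depths were not used here.

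The BED start was read as 0-based and positions are given 1-based. Genes and transcripts came from GENCODE M21 (55450 genes, 141767 transcripts); the original annotation was M23, also on GRCm38. For values over all sites, a site was given to 1 gene, first by an exon of the chosen transcript and then by the longest CDS, and 19297 sites had a gene. Distances are in spliced nt, those to the stop codon from its first base. Coding sequences were translated and aligned with MAFFT 7.526. Other steps used Python 3.11.15, NumPy 2.4.6, SciPy 1.17.1, Biopython 1.88, pysam 0.24.0 and matplotlib 3.10.9. Placement and motif search were tested on simulated transcripts. RefSeq genes (GRCm38.p6) were matched by symbol for all 9 members.

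Members and lists were chosen with earlier results of these data known. All 9 members were named, from each other list at most the 3 with the largest number of sites (equal numbers were ordered by mean score), with the macrophage markers lacking a site named in addition, and windows were printed for the highest score of each member and for sites outside DRACH. Other windows, and the GGACT, codon, junction, ATTTA and alignment comparisons were chosen after the values were seen. Alternatives were lower limits on the score (0.7, 0.9), merging sites up to 5 nt apart, a 1-based start, other motifs, transcripts and windows, and leaving out the gene with most sites.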

Additional observations from a re-analysis of the deposited data

How the results depend on the processing

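With a score of at least 0.7, 11 sites in 3 genes were left, 6 in Dusp4, 3 in Dusp7, 2 in Dusp6 and 0 in Dusp16. At 0.9 there were 4 sites in 1 gene, Dusp4, and 0 in Dusp6, Dusp7 and Dusp16; all of them (100%) were at DRACH, 50% were within 200 nt of the stop codon (41.3% of all sites), and 0.853% of the DRACH A of the 9 transcripts were listed. Without Dusp4, the gene with most sites, 9 sites were left and the share of listed DRACH A was 1.86%; over the 4 genes with a site it was 6.64%. With AC as the motif the share was 100%, and with a window of 50 nt the share of sites with a neighbour was 23.5%, against 42.2% of all sites. The other 42 of the alternative values stayed within their interval or within 1.5 times the main count, although without Dusp4 the median score, the share with a neighbour and the share at DRACH (88.9 against 91.9%) changed sides of the list's value, as did, at a score of at least 0.7, the shares near the stop codon (36.4 against 35.8%), with a neighbour (also at 0.9) and at DRACH (90.9 against 96.7%). Among them were all those with sites within 5 nt collapsed, with a 1-based start, with other transcripts, and with stop codon windows of 100 and 400 nt. Dusp5 had no transcript passing the support filter of the alternative with the longest span, and dropped out of it.

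No paired analysis was possible because there was 1 condition, and leaving out a replicate was not possible with pooled sites. A site missing from the list cannot be told apart from one without coverage, so the 5 genes without a site are not shown to lack m6A. With 17 sites in 4 genes, of which Dusp4 holds 8, the shares over the family have wide intervals, and sites of 1 transcript share its RNA level. Scores do not rank methylation.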
